A study of Mus musculus with 16 samples.

Results

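The Toll-like receptor genes Tlr1 to Tlr9 and Cd14, 10 genes in all, were followed across 16 arrays of mouse bone-marrow-derived macrophages, phagocytes grown from marrow precursors. They were chosen by gene symbol. The platform annotation used here gave 1 probe set each for 9 of them and listed none for Tlr5, which was not analysed here, so the values below concern 9 of 19937 genes. The macrophages had an NFAT5 knockout (KO) or the wild-type genotype (WT), both on a 129sv background. Each genotype was stimulated with LPS, a cell wall component of Gram-negative bacteria, or left unstimulated, and each of the 4 groups had 4 arrays numbered 1 to 4. The sources used here do not give the altered allele, the dose or length of the LPS treatment, or whether arrays came from separate animals. The spread behind each p-value is thus that among these arrays, and it may be technical. Levels are log2 values made by the authors with robust multi-array average (RMA), and a difference of 1 is a factor of 2.

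Toll-like receptors are the sensors by which macrophages recognise microbes. Cd14 and Tlr4 act together on LPS, with Cd14 binding it and handing it to Tlr4 and its partner MD-2 (Ly96). Tlr2 pairs with Tlr1 or Tlr6 to recognise bacterial lipoproteins, and these receptors sit at the cell surface. Tlr3, Tlr7, Tlr8 and Tlr9 sit in endosomes and recognise nucleic acids, namely double-stranded RNA (Tlr3), single-stranded RNA and its breakdown products (Tlr7 and Tlr8) and unmethylated CpG DNA (Tlr9). NFAT5 is a transcription factor related to NF-kB and to the other NFAT proteins, and is best known for the response to hypertonic stress.

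The 250 bases before the annotated start of Tlr2, Tlr3 and Tlr9 (RefSeq, build GRCm38.p6) are shown, out of 6 members whose windows were searched. Tlr4, Tlr7 and Cd14 were not searched, so whether these motifs occur before them is not known here. The windows of Tlr2 and Tlr3 were chosen because they alone of the 6 matched the NF-kB consensus. That of Tlr9 was chosen because the response of Tlr9 to LPS differed between genotypes. The windows are chr3:83841609-83841858 on the minus strand for Tlr2, chr8:45410381-45410630 on the minus strand for Tlr3 and chr9:106222348-106222597 on the plus strand for Tlr9. The annotated gene spans are 83836272 to 83841824 on chromosome 3 for Tlr2, whose outer end falls inside its window, and 45395665 to 45411075 on chromosome 8 for Tlr3, which takes in its whole window. Tlr9 spans 106222598 to 106226876 on chromosome 9, directly after its window. Whether the overlapping parts are exonic or intronic is not given by the table used. Capitals mark matches to the searched motifs on either strand.
Tlr2: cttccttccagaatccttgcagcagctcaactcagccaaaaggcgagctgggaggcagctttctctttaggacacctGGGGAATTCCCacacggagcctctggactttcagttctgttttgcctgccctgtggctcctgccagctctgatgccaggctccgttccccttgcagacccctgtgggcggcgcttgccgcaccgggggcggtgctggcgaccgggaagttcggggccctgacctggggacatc
Tlr3: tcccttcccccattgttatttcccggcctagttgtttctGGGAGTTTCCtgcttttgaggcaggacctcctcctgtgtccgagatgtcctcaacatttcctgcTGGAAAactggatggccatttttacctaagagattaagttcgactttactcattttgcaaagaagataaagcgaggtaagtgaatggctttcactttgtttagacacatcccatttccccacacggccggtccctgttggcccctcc
Tlr9: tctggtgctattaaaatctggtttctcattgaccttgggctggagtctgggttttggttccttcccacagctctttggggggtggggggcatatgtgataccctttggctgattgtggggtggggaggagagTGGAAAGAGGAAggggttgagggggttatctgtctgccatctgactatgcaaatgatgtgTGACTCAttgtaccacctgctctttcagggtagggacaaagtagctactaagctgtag
The motifs were the NF-kB consensus, the NFAT5 core TGGAAA, the PU.1 core GAGGAA and the AP-1 motif TGANTCA, and 32817 windows of the same length were searched. The Tlr2 window held 2 overlapping NF-kB matches, which together ran from 173 to 163 bases before the start. In Tlr3 an NF-kB match lay 211 to 202 bases before the start and an NFAT5 core 147 to 142 bases before it. The Tlr9 window held an NFAT5 core directly followed by a PU.1 core, 118 to 107 bases before the start, and an AP-1 match 58 to 52 bases before it. Of the other members searched, Tlr1 held an NFAT5 core in 1 of its 2 windows and a PU.1 core in the other, Tlr8 held a PU.1 core, and neither window of Tlr6 held a match. Both Tlr6 windows lie inside its annotated span, 64953092 to 64970942 on chromosome 5. The bases before the outer end of that span were not searched. The Tlr1 window with the NFAT5 core also lies inside the span of its gene. Of the 6, Tlr1, Tlr2 and Tlr6 rose with LPS in both genotypes, and Tlr3 was called in KO macrophages only. A link between matches and the response was not tested. Of all windows, 3.9% held the NF-kB consensus, 18.6% the NFAT5 core, 23.3% the PU.1 core and 6.75% the AP-1 motif. The NF-kB consensus was thus the least common of the 4. A match is a description of the letters and not a measured binding site.

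General macrophage markers were bright in every array. Csf1r, the receptor for the growth factor M-CSF, lay between 12.55 and 13.22, and Adgre1, a surface receptor of mature macrophages, between 13.00 and 13.38. Correlations between arrays of a group were 0.980 to 0.996. Nfat5 itself was 9.09 ± 0.29 in KO and 10.07 ± 0.34 in WT macrophages with LPS, and 9.04 ± 0.12 in KO and 9.39 ± 0.21 in WT macrophages without LPS (SD, n = 4). Whether its probe set lies in the altered part of the gene is not known here. Sex-linked transcripts split the arrays unevenly between genotypes, and the Y-linked Eif2s3y was called higher in KO macrophages with LPS, by 3.44 ± 0.89 (adjusted p = 0.0416). In 6 of the 8 KO arrays, those numbered 1 to 3, Xist lay between 5.67 and 6.29, below the Y-linked Kdm5d (7.36 to 8.46). In the other 10 arrays, which are the KO arrays numbered 4 and all 8 WT arrays, Xist was at least 11.71 and Kdm5d at most 5.53. Tlr7 and Tlr8 lie on the X chromosome, and values in these 10 arrays are given beside the genotype comparisons. They hold 1 KO array in each treatment, so their p-values take the spread from the other groups and assume that the lone KO array varies like them.

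**Figure D1:**
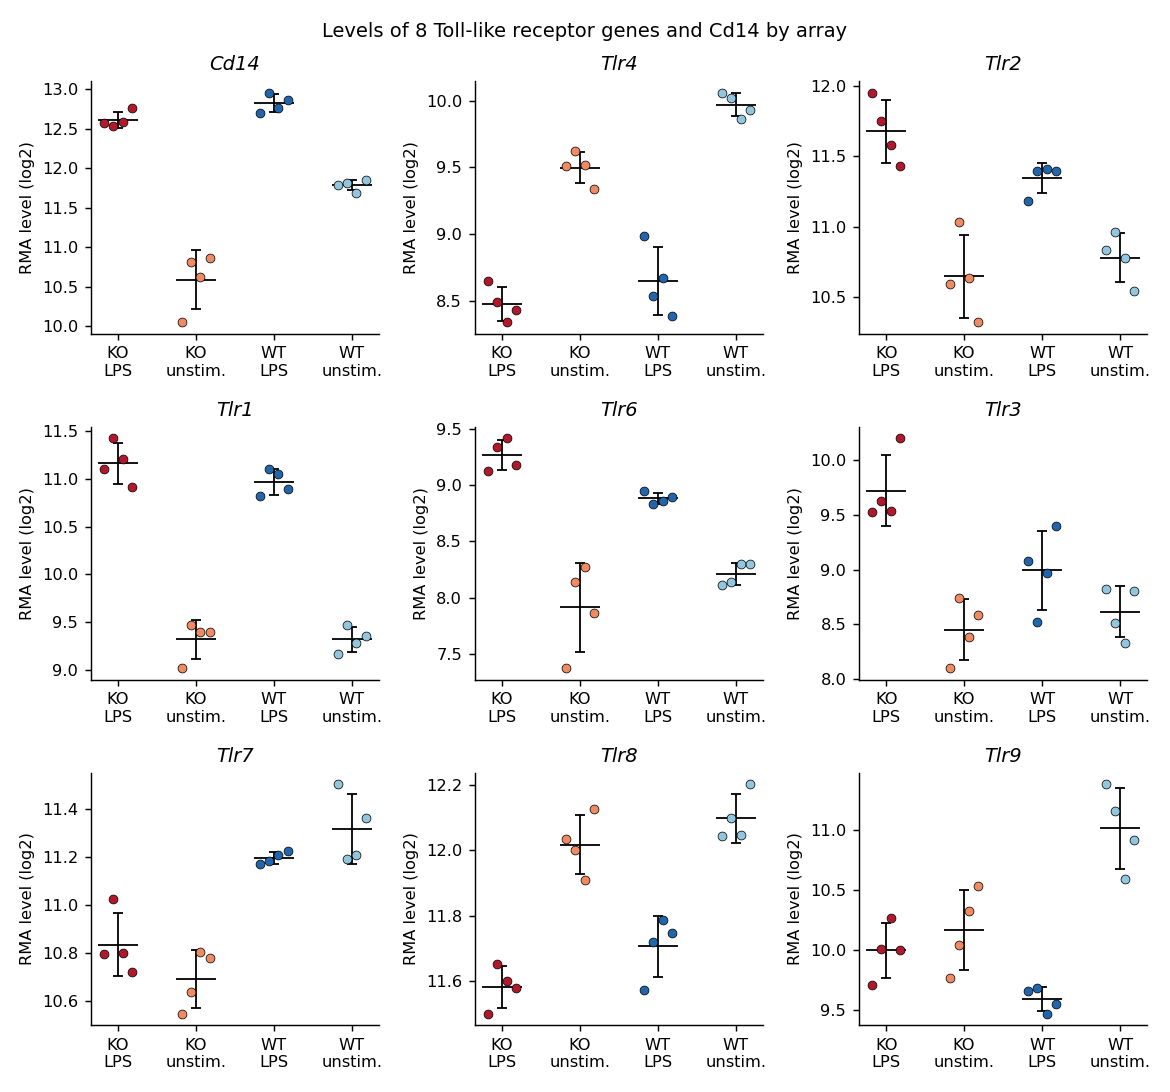
RMA level (log2) of 8 Toll-like receptor genes and Cd14 on each array, 1 panel a gene with its own axis range, which does not start at 0. Points are arrays 1 to 4 from left to right, bars are the mean ± SD of 4 arrays. Cd14 stands at 10.05 to 10.86 in unstimulated KO macrophages against 11.69 to 11.85 in unstimulated WT macrophages, and the groups with LPS overlap.

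LPS changed most of the receptor genes in both genotypes. In KO macrophages Cd14, Tlr1, Tlr2, Tlr3 and Tlr6 rose and Tlr4 and Tlr8 fell. In WT macrophages Cd14, Tlr1, Tlr2 and Tlr6 rose and Tlr4, Tlr8 and Tlr9 fell. A gene was called at an adjusted p under 0.05 in a limma fit of all 16 arrays that left out the array number. Benjamini-Hochberg adjustment was over 19937 genes, and every adjusted p below comes from that fit unless another setting is named. This fit called 7 of 9 members in KO macrophages, 5 higher and 2 lower. Over all genes it called 24.7% there, 12% higher and 12.7% lower. In WT macrophages it gave 7 of 9, 4 higher and 3 lower, where 30.8% of all genes were called, 14% higher and 16.8% lower. Stimulated and unstimulated groups did not overlap for 7 members in each genotype, and for 24.8% of all genes in KO and 32.3% in WT macrophages. The median log2 change of the 9 was 1.03 in KO against 0.01 over all genes, and 0.38 in WT against 0.06 over all genes. Less RNA per cell and fewer cells of a type cannot be told apart in these bulk samples.

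Among the receptors for LPS, Cd14 and Tlr4 moved in opposite directions. Cd14 had levels of 12.57, 12.53, 12.58 and 12.76 in KO macrophages with LPS, against 10.05, 10.81, 10.62 and 10.86 in unstimulated KO macrophages. WT macrophages had 12.70, 12.96, 12.77 and 12.86 with LPS, against 11.78, 11.82, 11.69 and 11.85 without. Every stimulated array thus lay above every unstimulated one, and KO array 1 was the lowest of all. The rise was 2.03 ± 0.14 on the log2 scale (SE, n = 4 against 4), or 4.08-fold, in KO (adjusted p = 2.06e-09) and 1.04 ± 0.14, or 2.05-fold, in WT (adjusted p = 6.75e-06).

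Tlr4, the signalling receptor for LPS, had levels of 8.65, 8.49, 8.34 and 8.43 in KO macrophages with LPS, against 9.51, 9.63, 9.52 and 9.34 without. With the WT genotype it had 8.99, 8.54, 8.67 and 8.39 with LPS, against 10.06, 10.02, 9.87 and 9.93 without. The groups were apart in both genotypes. Tlr4 fell by 1.02 ± 0.11 in KO (adjusted p = 1.29e-06) and by 1.33 ± 0.11 in WT macrophages (adjusted p = 3.46e-08), that is 2.03-fold and 2.51-fold. Ly96, the MD-2 subunit that binds LPS within the Tlr4 complex, changed by -0.12 ± 0.11 in KO and 0.04 ± 0.11 in WT macrophages and was not called (adjusted p = 0.564 and 0.822).

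The lipoprotein receptor genes rose together. Tlr1 had levels of 11.10, 11.42, 11.21 and 10.91 in KO macrophages with LPS, against 9.02, 9.47, 9.40 and 9.39 without. The WT levels were 10.82, 11.11, 11.05 and 10.89 with LPS, against 9.17, 9.47, 9.29 and 9.35 without. The rises of 1.84 ± 0.12 in KO and 1.65 ± 0.12 in WT macrophages (3.58-fold and 3.13-fold, adjusted p = 1.59e-09 and 4.50e-09) were the largest of the 8 Toll-like receptor genes. Tlr1 and Tlr6 are close relatives and neighbours on chromosome 5, and sharing of signal between their probe sets was not tested.

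Tlr6 had 9.13, 9.34, 9.42 and 9.18 in KO macrophages with LPS, against 7.37, 8.14, 8.27 and 7.86 without. WT macrophages had 8.94, 8.84, 8.86 and 8.90 with LPS, against 8.11, 8.14, 8.30 and 8.30 without. Stimulated arrays stood above unstimulated ones in both genotypes, and unstimulated KO array 1 was the lowest. Tlr6 rose by 1.35 ± 0.14 in KO (2.56-fold, adjusted p = 6.35e-07) and by 0.67 ± 0.14 in WT macrophages (1.59-fold, adjusted p = 0.00105).

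Tlr2, the shared partner of both, had 11.95, 11.75, 11.58 and 11.43 in KO macrophages with LPS, against 10.60, 11.03, 10.64 and 10.32 without. With the WT genotype it had 11.18, 11.39, 11.41 and 11.39 with LPS, against 10.84, 10.96, 10.78 and 10.54 without. The groups did not overlap. The rise was 1.03 ± 0.14 in KO (2.04-fold, adjusted p = 1.30e-05) and 0.57 ± 0.14 in WT macrophages (1.48-fold, adjusted p = 0.00369).

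The nucleic acid receptors did not move as a block. Tlr3 had 9.52, 9.63, 9.54 and 10.20 in KO macrophages with LPS, against 8.10, 8.74, 8.38 and 8.59 without, a rise of 1.27 ± 0.19 (2.41-fold, adjusted p = 3.66e-05). The WT levels were 9.08, 8.52, 8.97 and 9.40 with LPS, against 8.82, 8.51, 8.33 and 8.80 without. There the groups overlapped and the change of 0.38 ± 0.19 was not called (adjusted p = 0.148). Without WT LPS array 2, the lowest of its group, the WT change was 0.53 and was called (adjusted p = 0.0363).

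Tlr8 had 11.50, 11.65, 11.60 and 11.58 in KO macrophages with LPS, against 12.03, 12.00, 11.91 and 12.12 without. WT macrophages had 11.57, 11.72, 11.79 and 11.75 with LPS, against 12.04, 12.10, 12.05 and 12.20 without. The groups did not overlap in either genotype. Tlr8 fell by 0.43 ± 0.08 in KO (adjusted p = 0.000363) and by 0.39 ± 0.08 in WT macrophages (adjusted p = 0.000768). Tlr7 was not called in either genotype, with changes of 0.14 ± 0.09 in KO (adjusted p = 0.352, 95% interval -0.06 to 0.34) and -0.12 ± 0.09 in WT macrophages (adjusted p = 0.377, interval -0.32 to 0.08).

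Tlr9 had 9.71, 10.01, 10.27 and 9.99 in KO macrophages with LPS, against 9.77, 10.04, 10.32 and 10.53 without. With the WT genotype it had 9.66, 9.68, 9.46 and 9.55 with LPS, against 11.38, 11.15, 10.59 and 10.92 without. The KO groups overlapped, whereas every stimulated WT array lay below every unstimulated one. Tlr9 fell by 1.42 ± 0.17 in WT macrophages (2.68-fold, adjusted p = 2.14e-06), and in KO macrophages its change was -0.17 ± 0.17 (adjusted p = 0.591, 95% interval -0.52 to 0.19).

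**Figure D2:**
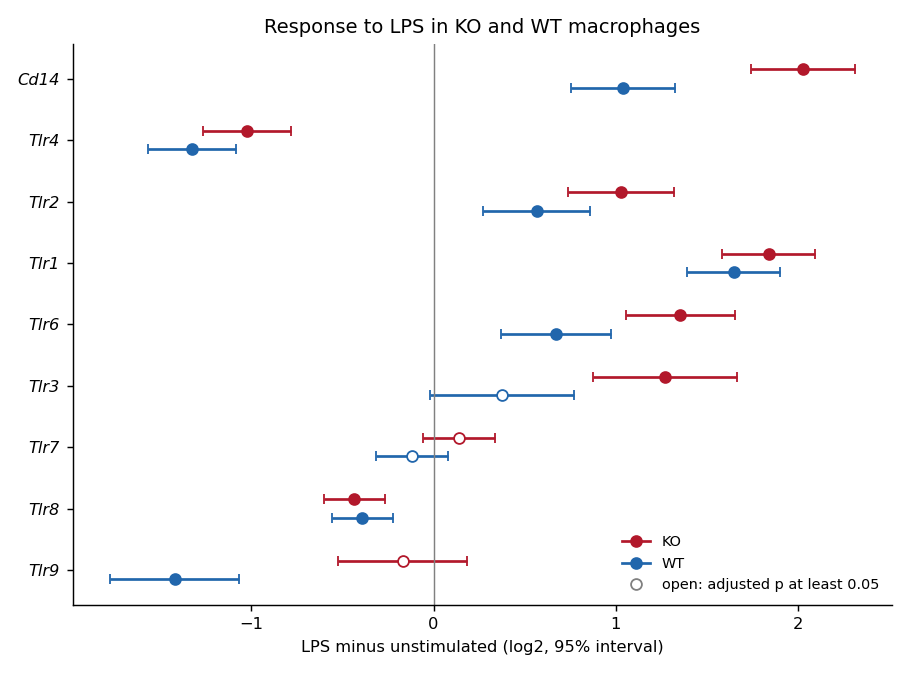
Log2 change with LPS of each receptor gene in KO (upper point of each pair) and WT macrophages (lower point), with 95% intervals from the limma fit of 16 arrays. Filled points were called. The intervals of Tlr9 (-0.52 to 0.19 in KO, -1.78 to -1.07 in WT) and of Cd14 (1.74 to 2.31 in KO, 0.75 to 1.32 in WT) do not overlap, and nor do those of Tlr3 (0.88 to 1.67 in KO, -0.02 to 0.77 in WT) and Tlr6 (1.05 to 1.65 in KO, 0.37 to 0.97 in WT), whose differences in response were not called.

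Whether the response to LPS depended on the genotype was tested as the difference between both changes. Such differences were called for Tlr9 and Cd14, 2 of 9 members, where 1.29% of all genes were called (257, or 451 with the array number as a block) and 0.988% had the greater value in KO. For Tlr9 the KO response exceeded the WT response by 1.25 ± 0.24 (adjusted p = 0.0145), and for Cd14 by 0.99 ± 0.19 (adjusted p = 0.016). Both stayed called when any 1 of the 16 arrays was left out, with differences of 1.12 to 1.39 for Tlr9 and 0.81 to 1.08 for Cd14. Both also stayed called with a term for Xist, with or without the block. The Xist split was the same in KO arrays with and without LPS, so that term cancels from these differences. It therefore cannot show whether they depend on Xist. In the 10 arrays with Xist above Kdm5d, with only 1 KO array in each treatment, the differences were 0.89 for Tlr9 and 0.87 for Cd14. With so few KO arrays these sizes cannot decide whether the calls hold there.

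For Tlr3 the KO response was greater by 0.89 ± 0.27, which was not called without the block (adjusted p = 0.132) and was with it (adjusted p = 0.0451). Tlr6 differed by 0.68 ± 0.20 (adjusted p = 0.130, 95% interval 0.26 to 1.10) and Tlr2 by 0.46 ± 0.20 (adjusted p = 0.395, interval 0.05 to 0.88). The differences of Tlr4 (0.30), Tlr7 (0.26), Tlr1 (0.19) and Tlr8 (-0.04) had intervals that include 0, the widest reaching from -0.17 to 0.55 for Tlr1.

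Without LPS, 3 of the 9 genes were lower in KO macrophages and none was called higher. These were Cd14, Tlr9 and Tlr7, where 1% of all genes were called (200, or 327 with the array number as a block) and 0.863% were lower. The median log2 difference of the 9 was -0.30, against 0.00 over all genes. Cd14 was lower by 1.20 ± 0.14, a log2 difference of -1.20 and 2.30-fold (adjusted p = 5.13e-05). Its levels in KO (10.05 to 10.86) and WT macrophages (11.69 to 11.85) were far apart in every array, including KO array 4, which had Xist above Kdm5d and a Cd14 level of 10.86. By array number the differences ranged from -1.74 in number 1 to -0.99 in number 4. Cd14 stayed called under each alternative with more than 1 KO array, at -1.29 to -0.99, with the highest adjusted p, 0.0198, for the Xist term with the block. In the 10 arrays, where KO array 4 stands alone against 4 WT arrays, the difference was -0.93.

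Tlr7 had 10.54, 10.64, 10.80 and 10.78 in unstimulated KO macrophages, against 11.50, 11.19, 11.21 and 11.36 in unstimulated WT macrophages. All KO arrays lay below all WT arrays, and KO array 4 was not set apart from the other KO arrays. The difference was -0.62 ± 0.09 (1.54-fold, adjusted p = 0.00144). It was -0.54 in the 10 arrays with Xist above Kdm5d, with only 1 KO array in each treatment, which cannot decide whether the call holds there. With a term for Xist the difference stayed called, but with that term and the array number as a block it was not (-0.67, adjusted p = 0.0964). Tlr8, which neighbours Tlr7 on the X chromosome, differed by -0.08 ± 0.08 (adjusted p = 0.898, 95% interval -0.25 to 0.09).

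Tlr9 had 9.77, 10.04, 10.32 and 10.53 in unstimulated KO macrophages, against 11.38, 11.15, 10.59 and 10.92 in unstimulated WT macrophages. The groups did not overlap, but KO array 4 and WT array 3 were only just apart. The difference was -0.85 ± 0.17 (1.80-fold, adjusted p = 0.0153), and by number it was -1.61, -1.12, -0.27 and -0.39. The call was lost without KO array 1 (-0.72, adjusted p = 0.07), WT array 1 (-0.72, adjusted p = 0.0681) or WT array 2 (-0.80, adjusted p = 0.0643). It was also lost in a fit of these 8 arrays alone (adjusted p = 0.109), with a term for Xist (-0.67, adjusted p = 0.112), with that term and the block (-0.60, adjusted p = 0.342) and in the 10 arrays with Xist above Kdm5d (-0.48, adjusted p = 0.431).

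Tlr4 was close to the threshold, at -0.47 ± 0.11 (1.39-fold, adjusted p = 0.0576). Its KO levels of 9.34 to 9.63 lay below all WT levels of 9.87 to 10.06. With the array number as a block it was called (adjusted p = 0.0164), as it was with dim genes left out (adjusted p = 0.0391). Centring array medians also gave a call (-0.51, adjusted p = 0.0358). Under 7 of the 10 alternatives of this kind Tlr4 was not called. Without WT LPS array 1 (adjusted p = 0.0226) or 4 (adjusted p = 0.0393) it was called. With any other single array left out it was not, and the adjusted p reached 0.19. Groups that do not overlap occurred for 4 of the 9 genes and for 4.33% of all genes. The differences of Tlr6 (-0.30, interval -0.60 to 0.00), Tlr3 (-0.17, interval -0.56 to 0.23), Tlr2 (-0.13, interval -0.43 to 0.16) and Tlr1 (0.00, interval -0.25 to 0.26) were not called.

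Markers of other cells were set beside these values. Plasmacytoid dendritic cells also use Tlr7 and Tlr9, and 5 of their markers were measured. In this comparison 0 were called by limma and 2, Bst2 and Tcf4, had an unadjusted p under 0.05. The share of all genes at that level was not counted. Bst2, which interferon also induces, had a difference of -0.90 ± 0.23 (adjusted p = 0.0751). The difference of Tcf4, a transcription factor of these cells, was -0.26 ± 0.10 (adjusted p = 0.495). Tcf4 lay at 10.17 to 10.53 in KO and 10.55 to 10.74 in WT macrophages, with no overlap. The other 3 had differences of 0.11 for Siglech, 0.12 for Ccr9 and 0.11 for Ly6d, and their groups overlapped. The log2 of the summed level of all 5 was 11.04 to 11.39 in unstimulated KO and 11.45 to 11.91 in unstimulated WT macrophages, with no overlap. The part of these markers in the Tlr7 and Tlr9 values was not tested. None of the 4 B cell, 5 T and NK cell, 6 conventional dendritic cell, 6 stromal cell or 8 neutrophil markers was called between genotypes, with or without LPS. The log2 of the summed level of 8 macrophage markers was 15.48 to 15.59 in unstimulated KO macrophages and 15.64 to 15.73 in unstimulated WT macrophages. Cd14 is among the summed markers, so the sum is not separate from the Cd14 difference, and its part in the result was not tested. Of these 8 only Cd14 itself was called, and Fcgr1, a receptor for antibodies, had a difference of -0.72 ± 0.17 (adjusted p = 0.0514).

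With LPS, Tlr3 was higher and Tlr7 lower in KO macrophages, 2 of 9 genes where 3.05% of all genes were called (609, or 950 with the array number as a block), 1.8% higher and 1.26% lower. Groups that do not overlap occurred for 5 of the 9 genes, Tlr2, Tlr3, Tlr6, Tlr7 and Tlr9, and for 7.73% of all genes. The median log2 difference of the 9 was 0.19, against -0.01 over all genes.

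Tlr3 levels of 9.52, 9.63, 9.54 and 10.20 in KO macrophages with LPS lay above all of the 9.08, 8.52, 8.97 and 9.40 in WT macrophages with LPS. The difference was 0.73 ± 0.19 (1.66-fold, adjusted p = 0.0411). The call was lost when any of 9 arrays was left out, namely KO LPS 1 to 4, WT LPS 1 to 3, unstimulated KO 3 and unstimulated WT 2 (0.57 to 0.79, adjusted p = 0.0527 to 0.184). In the 10 arrays with Xist above Kdm5d the difference was 1.21. It rests there on KO LPS array 4 alone, the highest of its group at 10.20. Leaving that array out of the main fit gave 0.57.

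Tlr7 had 10.79, 11.02, 10.80 and 10.72 in KO macrophages with LPS, against 11.17, 11.18, 11.21 and 11.22 in WT macrophages with LPS. The WT arrays were nearly equal and all above the KO arrays, and KO array 4, with Xist above Kdm5d, was the lowest. The difference of -0.36 ± 0.09 (1.29-fold, adjusted p = 0.0416) lost its call without any of 9 arrays, namely KO LPS 1, 3 and 4, WT LPS 1 to 4, unstimulated KO 2 and unstimulated WT 3 (-0.37 to -0.32, adjusted p = 0.0514 to 0.121). With a term for Xist it was -0.38 (adjusted p = 0.106), and in the 10 arrays with Xist above Kdm5d -0.48 (adjusted p = 0.178). The log2 of the summed plasmacytoid dendritic cell markers under LPS was 11.60 to 11.92 in KO and 11.57 to 12.09 in WT macrophages, so these overlapped. Without LPS the sums were lower in KO and did not overlap. Of the macrophage markers, Mertk, which takes part in the uptake of dying cells, was higher in KO macrophages with LPS, by 0.79 ± 0.16 (adjusted p = 0.00891).

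Cd14, which was lower in KO macrophages without LPS, differed by -0.21 ± 0.14 with LPS and was not called (adjusted p = 0.712, 95% interval -0.50 to 0.08). Tlr9 was not called either, with levels of 9.71 to 10.27 in KO against 9.46 to 9.68 in WT macrophages and a difference of 0.41 ± 0.17 (adjusted p = 0.321, interval 0.05 to 0.76). Tlr4 differed by -0.17 ± 0.11 (adjusted p = 0.742). Tlr6 (0.38, adjusted p = 0.226) and Tlr2 (0.33, adjusted p = 0.327) were not called, although their groups did not overlap. Tlr6 was called without unstimulated KO array 1 (adjusted p = 0.0395). No other fit with 1 array left out called it, and the adjusted p there reached 0.464. Of the 10 other alternatives, only the fit restricted to the 8 LPS arrays called it (adjusted p = 0.0467).

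**Figure D3:**
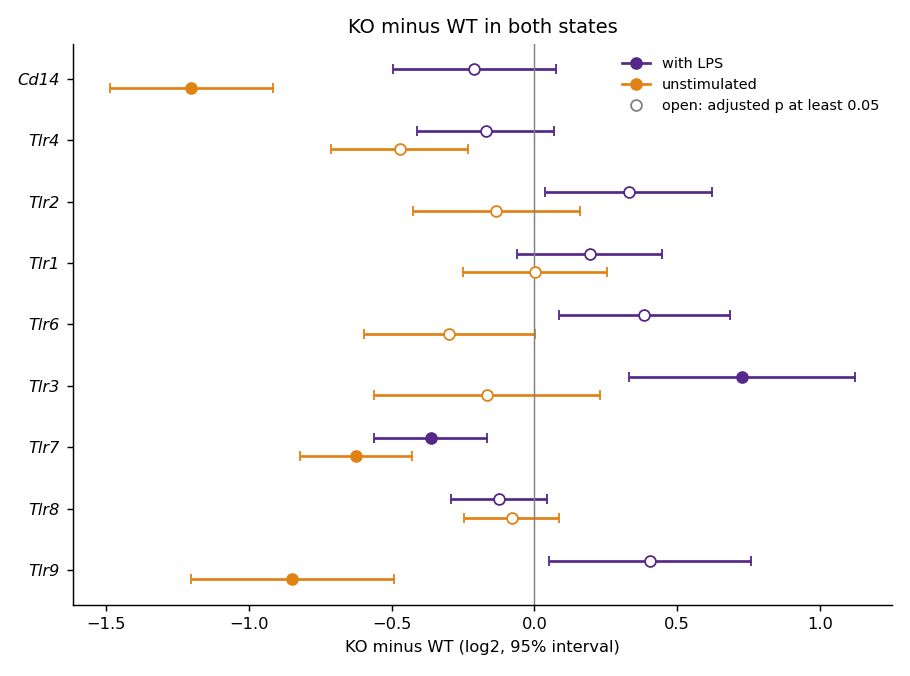
KO minus WT log2 difference of each receptor gene with LPS (upper point of each pair) and without LPS (lower point), with 95% intervals from the limma fit of 16 arrays. Filled points were called, which are Tlr3 (0.73) and Tlr7 (-0.36) with LPS and Cd14 (-1.20), Tlr7 (-0.62) and Tlr9 (-0.85) without.

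The 4 genes called between genotypes were matched to other genes by the distance between their 4 group means, each centred on the gene's own mean, over 18135 genes. This is a description over 4 means of 4 arrays each. Nearest to Cd14 were Elavl4, Ms4a6b and Tmem176a, at distances of 0.21, 0.23 and 0.27 on the log2 scale. For Tlr9 the nearest were Pgap1, Nf2 and Slc9b2 (0.20, 0.24 and 0.28), for Tlr7 Cask, Naaa and Sik2 (0.07, 0.08 and 0.12) and for Tlr3 Gbgt1, Slc22a5 and Hsd17b7 (0.12, 0.13 and 0.13).

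Other genes of the pathway were read from 3 lists. Of 7 measured further Toll-like and accessory receptors, 0 rose and 3 fell with LPS in KO macrophages, where 12.7% of all genes fell. In WT macrophages 0 rose and 3 fell, where 16.8% of all genes fell. Of the 3 falls in KO, Cd36 changed by -0.48 ± 0.17 (adjusted p = 0.0425) and lost its call without any of 7 arrays. Tlr13, which recognises bacterial ribosomal RNA, fell by 1.13 ± 0.14 in KO (adjusted p = 5.92e-06) and by 1.68 ± 0.14 in WT macrophages (adjusted p = 3.25e-08). With LPS it was higher in KO, at 10.84, 10.50, 10.49 and 10.72, against 10.12, 9.43, 9.74 and 10.23 in WT macrophages. That difference was 0.76 ± 0.14 (adjusted p = 0.00499). Tlr13 is X-linked, and the difference was 0.84 in the 10 arrays with Xist above Kdm5d (adjusted p = 0.169) and 0.61 with a term for Xist and the block (adjusted p = 0.118).

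Cd180, a relative of Tlr4 on the cell surface, fell by 0.57 ± 0.12 in KO (adjusted p = 0.00132) and by 1.27 ± 0.12 in WT macrophages (adjusted p = 1.24e-07) with LPS. Under LPS it was higher in KO macrophages by 0.59 ± 0.12 (adjusted p = 0.00905), and the difference in response of 0.70 ± 0.17 just missed the threshold (adjusted p = 0.0517). In a fit of the 8 arrays with LPS alone the difference under LPS was not called (adjusted p = 0.0528), nor was it with a term for Xist (adjusted p = 0.0669). Lbp, a serum protein that delivers LPS to Cd14, changed by 0.07 ± 0.12 in KO and 0.09 ± 0.12 in WT macrophages and was not called (adjusted p = 0.771 and 0.616). Its levels of 6.31 to 6.96 over all arrays lay near the array medians of 6.76 to 6.86, so it was dim. Ly86, the partner that Cd180 needs at the surface, changed by -0.31 ± 0.15 in KO (adjusted p = 0.172) and fell by 0.65 ± 0.15 in WT macrophages (adjusted p = 0.00217). Cd36, a scavenger receptor that presents lipids to Tlr2 and Tlr6, was higher in unstimulated KO macrophages by 0.79 ± 0.17 (adjusted p = 0.024), with 11.31, 10.95, 11.10 and 11.04 against 10.09, 10.18, 10.68 and 10.27 in WT macrophages. That call was lost without KO array 1 or 3 or WT array 1, 2 or 4 (0.72 to 0.79, adjusted p = 0.0571 to 0.104) and with a term for Xist (0.68, adjusted p = 0.112), among other settings.

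Among 10 genes for folding, trafficking and processing of the receptors, 2 rose and 4 fell with LPS in KO macrophages, and 2 rose and 6 fell in WT macrophages, against 24.7% of all genes called in KO and 30.8% in WT. The 4 falls in KO were Lgmn, Ctsl, Cnpy3 and Ctsb. Ctsl lost its call without any of 4 arrays, Cnpy3 without any of 2 and Ctsb without 1 (adjusted p = 0.05 to 0.123). With array medians centred Ctsb (adjusted p = 0.0648) and Ctsl (adjusted p = 0.0568) were not called, and in the 10 arrays none of the 4 was. Lrrc59, which helps the endosomal receptors leave the endoplasmic reticulum, rose by 0.86 ± 0.11 in KO (adjusted p = 6.97e-06) and by 1.01 ± 0.11 in WT macrophages (adjusted p = 7.62e-07). Ap3b1, a subunit of the AP-3 sorting complex, rose by 0.55 ± 0.08 in KO (adjusted p = 1.84e-05) and by 0.45 ± 0.08 in WT macrophages (adjusted p = 0.00011). Lgmn, a protease that cuts Tlr9, fell by 0.58 ± 0.12 in KO (adjusted p = 0.000849) and by 0.83 ± 0.12 in WT macrophages (adjusted p = 1.51e-05). Slc15a4, a lysosomal transporter that signalling by Tlr7 and Tlr9 needs, was called for the difference in response.

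Slc15a4 had 10.56, 10.47, 10.64 and 10.27 in KO macrophages with LPS, against 10.50, 10.76, 10.64 and 10.62 without. The WT levels were 9.97, 9.71, 10.17 and 10.20 with LPS, against 10.79, 10.93, 10.77 and 10.88 without. The KO groups overlapped and the WT groups did not, and the responses differed by 0.69 ± 0.16 (adjusted p = 0.0357). That call was lost without any 1 of the 4 unstimulated WT arrays, KO arrays 1, 3 and 4, KO LPS arrays 1 to 3, or WT LPS arrays 1 and 2 (0.59 to 0.71, adjusted p = 0.0505 to 0.0868). Under LPS, Slc15a4 was higher in KO by 0.47 ± 0.11 (adjusted p = 0.022) and Ctss, another protease that processes these receptors, by 0.36 ± 0.09 (adjusted p = 0.0401). Both calls were lost without KO LPS array 1, 2 or 3 or WT LPS array 2 (adjusted p = 0.0517 to 0.101 for Slc15a4 and 0.0782 to 0.162 for Ctss), among others, and with a term for Xist (adjusted p = 0.164 and 0.311).

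Of 18 measured adaptors, kinases and brakes, 9 rose and 1 fell with LPS in KO macrophages, and 12 rose and 1 fell in WT macrophages, against 12% of all genes higher in KO and 14% in WT. Of the rises in WT, that of the kinase gene Map3k7 lost its call without any of 5 arrays (adjusted p = 0.0517 to 0.104). In the 10 arrays Tirap (adjusted p = 0.0788) and Tbk1 (adjusted p = 0.14) were not called in KO macrophages. By limma, 0 were called between genotypes in either state or for the difference in response. At an unadjusted p under 0.05 there were 3 without LPS, 3 with LPS and 1 for the difference. The share of all genes at that level was not counted. Peli1, a ubiquitin ligase of the pathway, rose by 2.11 ± 0.10 in KO and 1.96 ± 0.10 in WT macrophages (4.33-fold and 3.89-fold). Irak3, a brake on receptor signalling, rose by 2.01 ± 0.12 in KO and 1.74 ± 0.12 in WT macrophages, and the kinase gene Irak2 rose by 1.71 ± 0.10 in KO and 1.86 ± 0.10 in WT macrophages. The highest adjusted p among these 3 genes was 1.65e-09.

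**Figure D4:**
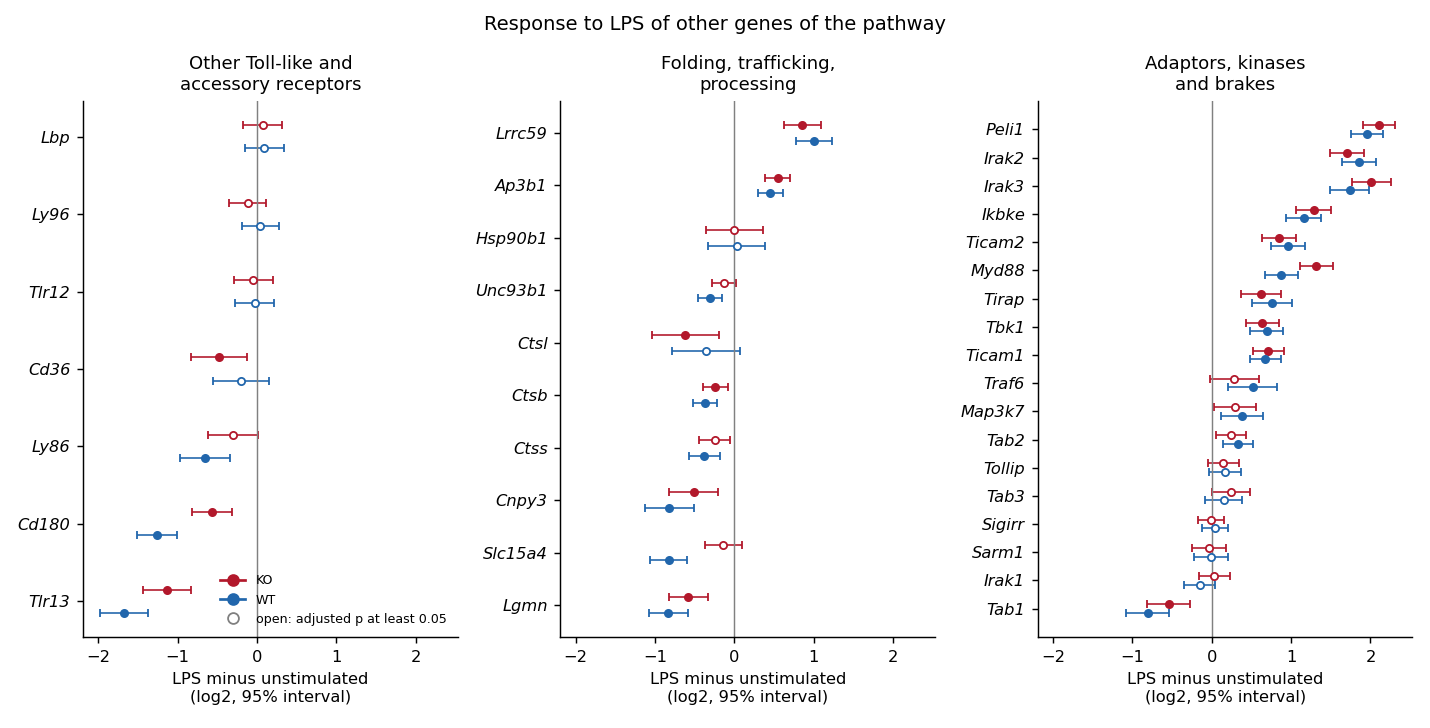
Log2 change with LPS of 7 further receptors, 10 genes for folding, trafficking and processing and 18 adaptors, kinases and brakes, in KO (upper point of each pair) and WT macrophages (lower point), with 95% intervals from the limma fit of 16 arrays. Filled points were called. The changes of Slc15a4 (-0.14 in KO, -0.83 in WT) differed between genotypes by the test of the difference itself.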

How the data were processed

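RNA from mouse bone-marrow-derived macrophages was measured on 16 single-colour Affymetrix arrays, 4 for each genotype and treatment. The authors deposited log2 values normalized by RMA, per the submitters' processing notes. Of 34760 probe sets, 21640 had 1 gene symbol, 1321 several and 11799 none listed. The brightest probe set over all arrays stood for a gene, which gave 19937 genes, and array medians were 6.76 to 6.86. Arrays have no read depth, so their number limits the precision. Groups and numbers came from the sample titles.

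A limma 3.58.1 fit in R 4.3.3, with a mean for each group and 12 residual degrees of freedom, gave 5 comparisons, with Benjamini-Hochberg adjustment over all genes and calls at an adjusted p under 0.05. The text names all members, list genes called between genotypes or for the difference in response, up to 3 more a list by smallest p with LPS, and the 3 nearest genes by pattern. The rule's check genes named are Nfat5, Xist, Kdm5d and Eif2s3y. Marker genes, and the list genes Ctsl, Cnpy3, Ctsb, Map3k7, Tirap and Tbk1, fall outside it and were picked after their values were seen. Members, lists and tests were chosen with earlier results of these data known. Scripts were tested on simulated data.

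Same-numbered KO and WT arrays deviated together, with correlations of 0.16 to 0.44 without LPS and 0.19 to 0.52 with LPS. Those of stimulated and unstimulated arrays were -0.06 to 0.56 in KO and 0.05 to 0.43 in WT. The numbers may thus pair arrays, but the main fit left them out and its p-values ignore any pairing. The block alternative gave each number a term shared by all 4 groups, so it paired across genotype and across treatment. Alternatives were the number as a block, only the groups compared, each array left out, array medians centred, dim genes left out, means of probe sets, another empirical Bayes setting, arrays 1 to 3, and terms or subsets by Xist.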

Additional observations from a re-analysis of the deposited data

Results flagged for a closer look

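Tlr9 and Cd14 responded to LPS differently in the 2 genotypes by the test of the difference itself. The KO minus WT difference in response was 1.25 for Tlr9 and 0.99 for Cd14 on the log2 scale.

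Single arrays stood far from the other 3 of their group in 2 of 36 groups tested, and chance alone sets about 1 in 20 groups apart. Tlr3 in KO macrophages with LPS had its highest value, 10.20, on array 4, with a gap of 0.85 of the group's range. Tlr2 in WT macrophages with LPS had its lowest value, 11.18, on array 1, with a gap of 0.93 of the group's range.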

How the results depend on the processing

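With 1 array left out at a time, 690 results on members kept direction and side of the threshold, 21 lost the call, 4 gained one and 5 changed sign. Under the other 10 alternatives the counts were 407, 19, 5 and 10. For LPS in KO macrophages, 4919 genes were called, and 1962 in the 10 arrays with Xist above Kdm5d. Without LPS the genotypes differed in 3 members and 200 genes. These counts were 1 and 58 in those 10 arrays, and 1 and 84 with a term for Xist and the replicate block. The block alone gave 327 genes, a fit of only the groups compared 91, the Xist term 359, and leaving out 1 array 116 to 209. With LPS they differed in 2 members and 609 genes. Those counts were 0 and 89 in the 10 arrays and 0 and 142 with the Xist term and block. Members numbered 1 in the fit of only the groups compared, 1 with arrays 1 to 3, 1 with the Xist term, 0 with medians centred and 0 to 3 with 1 array left out. The block gave 950 genes and leaving out 1 array 308 to 659. The difference in response was called for 2 members and 257 genes, against 0 and 4 in the 10 arrays. It gave 451 genes with the block, 469 with the Xist term and block, 153 with arrays 1 to 3 and 133 to 271 with 1 array left out, and was not run with only the groups compared. The 10 arrays and arrays 1 to 3 hold fewer samples, and otherwise the cause was not tested.

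Signs changed only for differences called under neither setting. Tlr7 with LPS in KO was -0.0614 in the 10 arrays. Without LPS, Tlr1 between genotypes was -0.0342 with medians centred, -0.0099 with arrays 1 to 3, -0.0875 with the Xist term, -0.0672 with that term and the block and -0.0487 to 0.10 with 1 array left out. Tlr3 without LPS was 0.14 with the Xist term and Tlr8 0.028 in the 10 arrays. With LPS, Tlr1 was -0.0572 in the 10 arrays and Cd14 0.0022 with the Xist term. The Tlr1 difference in response was -0.13 in the 10 arrays. The number of arrays, 4 a group, limits how small a difference can be resolved.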
